A study of Mus musculus with 6 samples.

Results

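The genes described here are 8 genes that cells switch on when a bone morphogenetic protein (BMP) signal reaches them: the 4 Id genes (Id1, Id2, Id3 and Id4), the inhibitory Smads Smad6 and Smad7, the receptor-activated Smad gene Smad9 and the decoy receptor gene Bambi. They were taken by gene symbol, and all 8 were found, each as 1 entry, among 43496 gene entries, and all 8 are among the 15710 with a mean of at least 1 FPKM that were tested. The tissue was the cranial base, the skull part under the brain, taken at E15.5 (embryonic day) from mice of the strain C57BL/6J. Besides cartilage it held markers of bone, muscle, epithelium, fat and blood. There were 3 embryos labelled Control and 3 labelled Memo1 mutant (ENU allele), an allele made with the chemical mutagen ENU, with 1 library per embryo. The labels do not say which Memo1 alleles the controls carry, nor name a further allele or a treatment in either group. The comparison asked how expression in mutant cranial base differs from that in controls. Values are FPKM, sequenced fragments scaled to transcript length and to the library's total. A change in bulk tissue can come from fewer cells of a type or from less RNA per cell, which cannot be told apart here.

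BMPs bind pairs of type I and type II receptors, which phosphorylate Smad1, Smad5 and the Smad9 protein (also called Smad8). These join Smad4, enter the nucleus and switch on target genes, of which the Id genes are among the most direct. Id proteins carry a helix-loop-helix domain without a DNA-binding region, and so hold basic helix-loop-helix (bHLH) transcription factors away from DNA. Smad6, Smad7 and Bambi are induced by the same signal and dampen it, which makes them feedback inhibitors. In the skeleton BMP signalling drives cartilage condensation, chondrocyte growth and bone formation.

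Across the 3 control and 3 mutant embryos no BMP response gene differed between the genotypes past the test. Id3, the most abundant, averaged 130 ± 10.9 FPKM over the controls and 129 ± 4.39 FPKM over the mutants (SD, n = 3 each). Id2 averaged 81.8 ± 4.11 and 76.8 ± 7.12 FPKM, and Id1 78.2 ± 6.85 and 82.5 ± 12.4 FPKM (SD, n = 3). The largest departure in a single library was Smad7, which was listed at 0 in mutant 1.

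Mutant 1 stood apart from the other libraries across the whole table. It had 30811 genes listed at 0, against 19787 to 20594 in the other 5, and 823 genes above 5 FPKM in each of those were listed at 0 in it. Across tested genes, which are not independent replicates, its correlation with the other libraries was r = 0.748 to 0.762 on the log2 scale, while each of the other 5 reached at least 0.98 with another of them. From the steps between low values, controls 2 and 3 and mutants 2 and 3 had 80.2%, 93.4%, 117% and 152% of the depth of control 1, and mutant 1 had no usable steps. Memo1 was 19.1 to 23.1 FPKM in controls and 20.1 to 25.4 FPKM in mutants; an ENU allele need not alter the level of its mRNA, so this does not check the labels. The tissue's own markers were present: 6 genes of cartilage summed to 2380 to 3210 FPKM in controls and 3610 to 4060 FPKM in mutants, with none at 0. Of the 6, 5 had every mutant above every control, beside 8.98% of all tested genes. Because mutant 1 stood apart, the comparison of each of the 8 genes is given also without that library, here or in a plot.

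In controls the 8 genes fell into an abundant and a low group. Id3 was the most abundant, above 96.2% of the 15710 tested genes, and no control value of Id2 reached it. Id2 and Id1 came next and overlapped, above 93.2% and 92.8% of tested genes. Id4, at 8.14 to 10.3 FPKM, and Smad7, at 7.72 to 9.78 FPKM, overlapped each other and lay near the middle of all tested genes, above 45.7% and 44.9% of them. Smad6 (5.89 to 7.01 FPKM) and Bambi (5.31 to 6.53 FPKM) overlapped each other below them, and Smad9 (3.4 to 4.84 FPKM) was lowest. FPKM is scaled to transcript length, so these levels can be set side by side. In mutants Id1 and Id2 exchanged places in the order of means, a pair that the control values did not tell apart. Over mutants 2 and 3 alone Id4 and Smad7, which also overlapped in controls, exchanged places too. The Id genes together made up most of the summed level of the 8, with 281, 309 and 307 of 306, 334 and 334 FPKM in controls 1, 2 and 3, and 268, 306 and 316 of 286, 336 and 342 FPKM in mutants 1, 2 and 3.

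**Figure D1:**
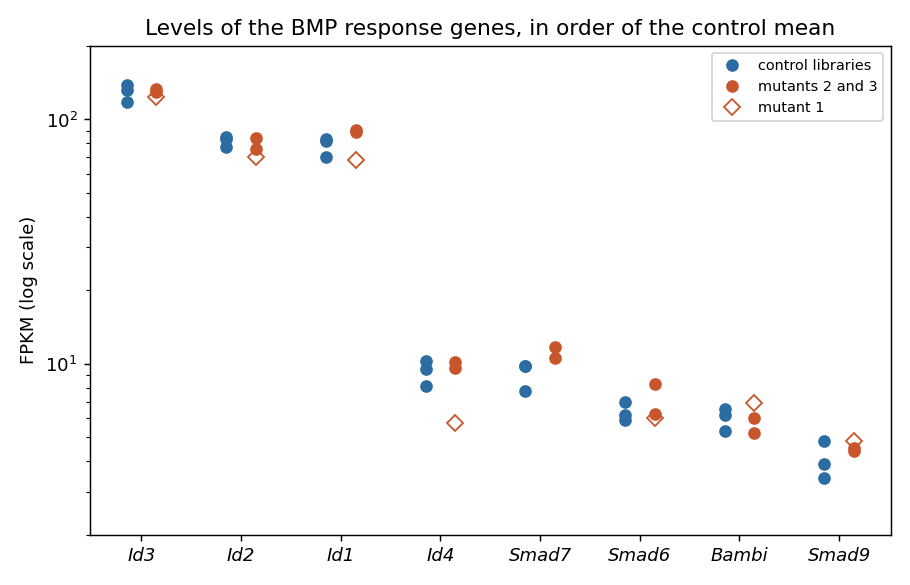
Level of each BMP response gene in FPKM on a log axis, with the control libraries in blue, mutants 2 and 3 in filled orange and mutant 1 as an open diamond. Id3, Id2 and Id1 lie at 68.2 FPKM or above and the other 5 genes at 11.7 FPKM or below in both genotypes; the Smad7 value of mutant 1 is 0 and is not drawn.

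The BMP-activated Smad complex binds GC-rich elements and the Smad box, so the promoters of the genes were read for one form of each: the palindrome GTCTAGAC and the sequence GGCGCC. RefSeq promoters (GRCm38.p6) of 300 bases, with 250 before and 50 from the transcript start on, were at hand for Id2, Id3, Id4, Smad6 and Smad9. Both motifs read the same on both strands and do not overlap each other. The sites are shown as letters of a kind that this complex is known to bind; each window holds 30 bases in the direction of the gene, with the motif in capitals.
Smad6, chr9:64022045-64022074, minus strand: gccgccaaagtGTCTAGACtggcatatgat
Id2, chr12:25096306-25096335, minus strand: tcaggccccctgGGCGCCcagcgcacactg
Id4, chr13:48260956-48260985, plus strand: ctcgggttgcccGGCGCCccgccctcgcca
Smad9, chr3:54755519-54755548, plus strand: gcacggccgcctGGCGCCcttccagcgcgg
The Smad6 palindrome spans the transcript start, from base -4 to base 4 (the first transcribed base is 1), and 0.213% of 32817 promoters of this length hold it. The other motif lies at -231 to -226 in Id2, -148 to -143 in Id4 and -51 to -46 in Smad9, and 11.9% of promoters hold it. The 5 promoters were 60.0% to 73.7% G or C, against a median of 52.7% over all promoters. Neither motif was found in the Id3 window, which says only that these letters are not in it. None of the 4 genes with a match passed the comparison of the genotypes below.

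Id1, the Id gene most used as a readout of BMP signalling, was 70.4, 81.3 and 83 FPKM in controls 1, 2 and 3 and 68.2, 90.6 and 88.6 FPKM in mutants 1, 2 and 3. The lowest values were those of control 1 and mutant 1, and the groups overlapped. Mutants 2 and 3 lay above every control. The log2 change of mutants against controls, on log2(FPKM + 1), was 0.068, SE 0.15, with all 6 libraries (95% interval -0.29 to 0.43, limma adjusted p = 0.821). Without mutant 1 it was 0.20, SE 0.093 (95% interval -0.028 to 0.42, limma adjusted p = 0.35), the smallest adjusted p of the 8 genes in that fit.

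Id2, made in many developing tissues, measured 83.2, 85.1 and 77.2 FPKM in controls 1, 2 and 3 and 70.2, 76 and 84.3 FPKM in mutants 1, 2 and 3. Id3 measured 118, 132 and 139 FPKM in controls, beside 124, 129 and 133 FPKM in mutants. For Id3 all mutants lay inside the control range, and for Id2 mutant 3 did and mutants 1 and 2 lay below it. Id3 had the narrowest equal-weight interval of the 8 genes, a fold of 0.844 to 1.17 on the FPKM + 1 scale, and that of Id2 was 0.782 to 1.12. Without mutant 1 the intervals were 0.869 to 1.18 for Id3 and 0.851 to 1.13 for Id2.

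Id4, the Id gene better known from the nervous system and bone-forming cells, was 9.5, 10.3 and 8.14 FPKM in controls, beside 5.71, 9.65 and 10.2 FPKM in the mutants. The only value outside the control range was that of mutant 1. The log2 change was -0.14, SE 0.25 (limma adjusted p = 0.783), and without mutant 1 it was 0.091, SE 0.12 (limma adjusted p = 0.734). The ratio of Id1 to Id3, the abundant pair that is often induced together, was 0.598, 0.614 and 0.597 in the controls and 0.551, 0.701 and 0.668 in mutants 1, 2 and 3. It was thus higher than every control in 2 mutants and lower in the third.

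Smad6, which blocks mainly the BMP branch, was 6.15, 5.89 and 7.01 FPKM in controls, beside 6.02, 8.28 and 6.22 FPKM in the mutants. Mutant 2 alone lay above the control range, with a log2 change of 0.085, SE 0.20, over all 6 libraries (limma adjusted p = 0.839) and 0.16, SE 0.15, without mutant 1 (limma adjusted p = 0.62). Smad7, which blocks the BMP and the TGF-beta branch, was 7.72, 9.78 and 9.78 FPKM in controls, was listed at 0 in mutant 1, and was 11.7 and 10.6 FPKM in mutants 2 and 3. The 2 mutants with a value lay above every control. Whether this listed 0 is a failed estimate or a low level was not tested. The lowest 5% of values above 0 ended at 1.87 FPKM in mutant 1 and at 0.0258 to 0.0364 FPKM in the other 5 libraries. The mitochondrial gene mt-Co1, which every cell uses, is listed at 0 in all 6 libraries, unlike Smad7. Of 1803 genes with a mean of 8 to 12 FPKM in the other 5 libraries, 279 were listed at 0 in mutant 1. No mean is therefore given for Smad7 in mutants. Without mutant 1 its log2 change was 0.27, SE 0.13 (95% interval -0.044 to 0.58, limma adjusted p = 0.355); with mutant 1 at 0 the sign turned (-0.93, SE 1.0, limma adjusted p = 0.702).

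Smad9 encodes a BMP-activated Smad whose own gene responds to BMP. It was 4.84, 3.91 and 3.4 FPKM in controls, beside 4.84, 4.38 and 4.53 FPKM in mutants, so that all mutants lay above controls 2 and 3. Control 1 was at the level of the highest mutant, and the log2 change of 0.16, SE 0.23, did not pass (limma adjusted p = 0.748). Bambi encodes a receptor-like protein without a kinase domain that takes the place of a working receptor. It was 6.53, 5.31 and 6.19 FPKM in controls, beside 6.89, 6.01 and 5.23 FPKM in mutants, with mutant 1 above the control range and mutant 3 below it. Its log2 change was 0.005, SE 0.20 (limma adjusted p = 0.992), and -0.080, SE 0.13, without mutant 1 (limma adjusted p = 0.784).

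**Figure D2:**
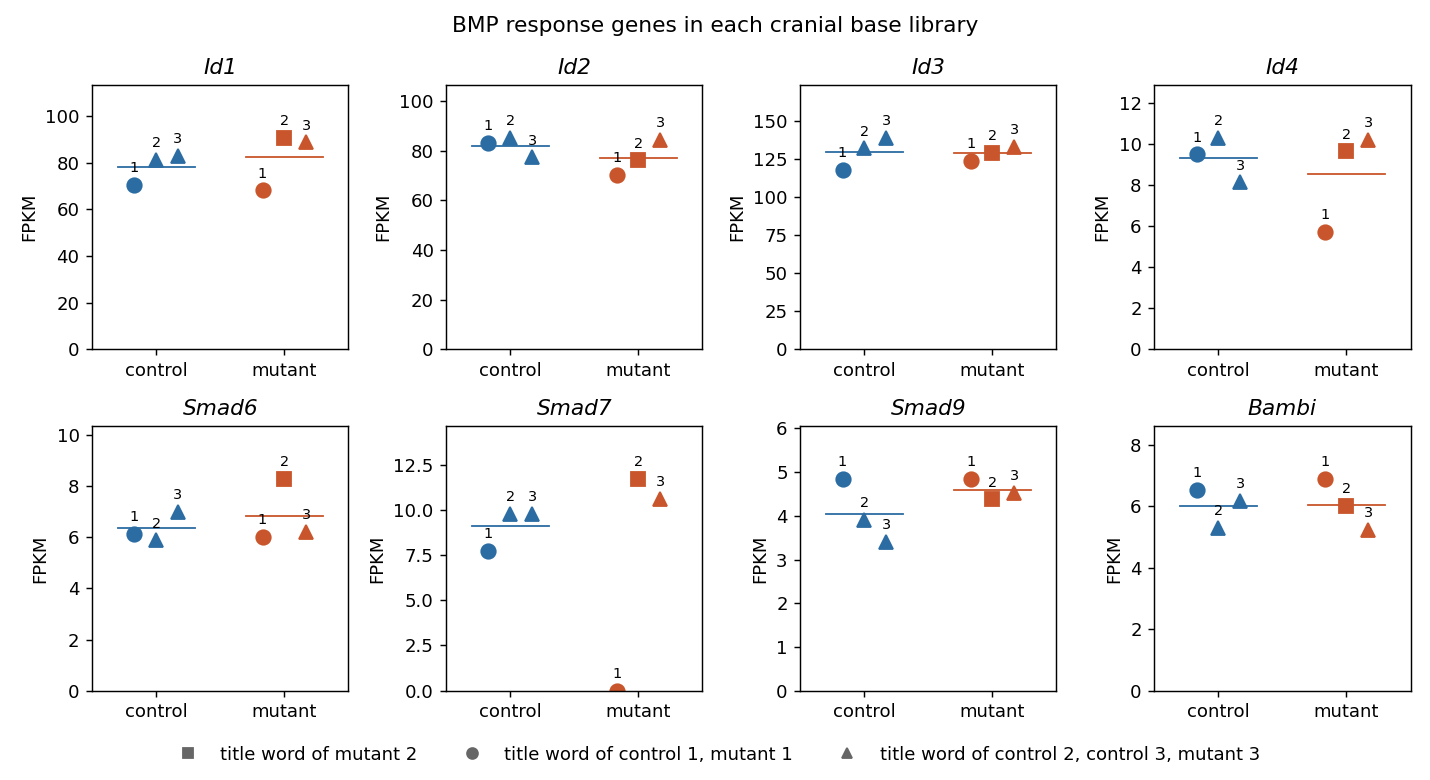
FPKM of each BMP response gene in the 3 control (blue) and 3 mutant (orange) libraries, numbered by replicate, with the group mean as a line (none for the mutants in Smad7) and a symbol for the libraries whose titles share a first word. Controls and mutants overlap in all 8 panels, and Smad7 is at 0 in mutant 1.

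Taking the 8 genes as a group, 4 had a log2 change above 0 and 4 below with equal weights, with a median of -0.003, beside -0.046 over all tested genes. limma called 0 of the 8, and 0 (0%) of 15710 genes in either direction, with 0 of the 8 and 805 of all genes at an unadjusted p under 0.05. With array weights, which give discordant libraries less influence (0.0329 for mutant 1, 1.47 to 2.76 for the rest), limma called 0 of the 8, where 0.719% of tested genes were called higher and 1.32% lower. The lowest limma adjusted p of the 8 there was 0.284, for Id1 (weighted log2 change 0.19, SE 0.083). Without mutant 1 limma again called 0 of the 8, where 0.0127% were called higher and 0.0318% lower. In these fits 0 of the 8 were at an unadjusted p under 0.05 too, where 2876 and 2666 of all genes were. In the authors' deposited table the p-values of the 8 ran from 0.279 for Smad9 to 0.973 for Bambi, by a test of unstated kind.

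With all 6 libraries the groups overlapped in 8 of the 8 genes, where 8.98% of tested genes had every mutant above every control and 11.9% every mutant below. Without mutant 1 Id1 and Smad7 had every mutant above every control, 2 of the 8, where 16.2% of tested genes did so and 20.1% had every mutant below. Of all tested genes 45.8% had a log2 change above 0 with all 6 libraries, and 47% without mutant 1. In these 5 libraries 6 of the 8 had a log2 change above 0, with a median of 0.11, beside -0.015 over all tested genes. The median size of the change, sign aside, was 0.11 for the 8 and 0.14 for all tested genes. The SD of log2 values over these 5 libraries ran from 0.075 for Id2 to 0.20 for Smad7, around the 0.16 of the median tested gene. A missed threshold does not show equal levels: over the 5 libraries the 95% intervals allowed a fold, on the FPKM + 1 scale, of 0.764 to 1.17 for Bambi, 0.875 to 1.43 for Smad6, 0.97 to 1.5 for Smad7, 0.844 to 1.41 for Smad9, 0.872 to 1.3 for Id4 and 0.981 to 1.34 for Id1. With all 6 libraries the interval of Smad7 was 0.0923 to 2.99, and those of the other 7 lay between 0.588 for Id4 and 1.64 for Smad9.

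**Figure D3:**
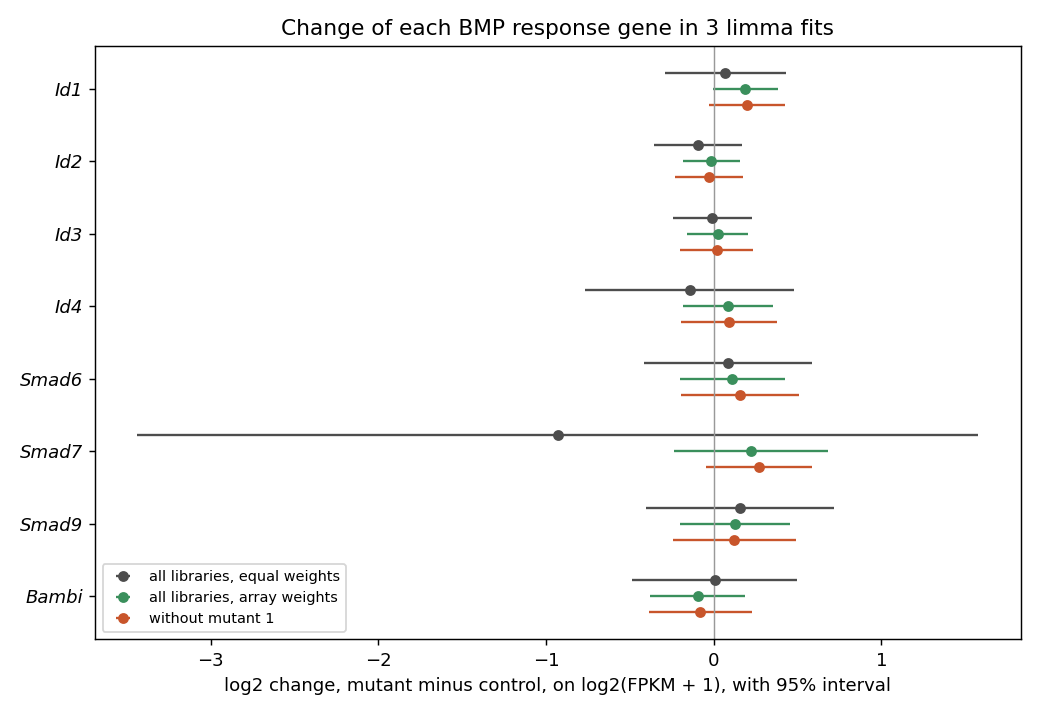
Log2 change of each BMP response gene, mutant minus control, on log2(FPKM + 1), with its 95% interval in limma fits with equal weights, with array weights and without mutant 1. All 24 intervals include 0, and that of Smad7 runs from -3.44 to 1.58 with equal weights.

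Library titles begin with a word whose meaning the labels do not give. One word stands on control 1 and mutant 1, another on controls 2 and 3 and mutant 3, and mutant 2 has its own. Within these words the log2 difference of mutant and control for Id1 was -0.044 (mutant 1 and control 1) and 0.11 (mutant 3 and the mean of controls 2 and 3). For Id3 the same differences were 0.073 and -0.033, for Smad6 -0.027 and -0.041, for Bambi 0.067 and -0.11, and for Smad9 0 and 0.25. For Id2 they were -0.24 and 0.057, and for Id4 -0.65 and 0.15. For Smad7 the second was 0.10, the first resting on the listed 0. Of these genes Smad6 alone had the same sign in both. Among controls, control 1 lay below the mean of the other two by a log2 difference of -0.22 for Id1, -0.20 for Id3 and -0.31 for Smad7, and above it by 0.33 for Smad9 and 0.16 for Bambi. For these 5 genes the difference between controls was larger than that between the genotypes without mutant 1. Each word holds at most 1 mutant, so no test within a word was made.

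Over the 5 libraries other than mutant 1, Id1 and Smad7 had the most similar pattern of the 28 pairs among the 8 genes. After each gene's log2 values were centred, they differed by a root mean square of 0.056. Both were lowest in control 1 and highest in mutant 2. Among 8434 other tested genes averaging 10 FPKM or more, those nearest to Id1 over all 6 libraries were Hspa12b (root mean square difference 0.0147 on the log2 scale), Zfp664 (0.0397) and Map3k3 (0.0425). Those nearest to Smad6 were Arhgef2 (0.0485), Lrpap1 (0.0674) and Keap1 (0.0687). Those nearest to Bambi were Rpl10a-ps1 (0.0233), Dad1 (0.0437) and Nt5c3b (0.0484); Rpl10a-ps1 is a pseudogene, whose reads may be shared with its parent gene.

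Of 84 other genes of the pathway, in 7 lists, 81 were tested. Of these limma called 0 with equal weights, 1 with array weights and 0 without mutant 1. Array weights called 0.719% of all tested genes higher and 1.32% lower. Every mutant lay above every control in 9 of the 81 and below in 8, beside 8.98% and 11.9% of all tested genes. Of all tested genes 45.8% had a log2 change above 0 with equal weights, and 47% without mutant 1. The 1 of the 81 that was called was Scx, a bHLH factor of tendon progenitors. It was 10.2, 12.3 and 15.8 FPKM in controls and 17.8, 24.9 and 22.5 FPKM in mutants. Every mutant lay above every control (weighted log2 change 0.85, SE 0.15, limma adjusted p = 0.0433; 0.695 with equal weights and 0.105 without mutant 1). Over the alternatives its limma adjusted p ran from 0.0433 to 0.872. Tcf15, a bHLH factor of somites, was 1.85, 1.95 and 1.76 FPKM in controls, was listed at 0 in mutant 1, and was 3.14 and 3.07 FPKM in mutants 2 and 3 (limma adjusted p = 0.143 with weights). Hand1 was 2.91, 4.91 and 5.78 FPKM in controls, was listed at 0 in mutant 1, and was 3.04 and 2.33 FPKM in mutants 2 and 3 (limma adjusted p = 0.243 with weights). These 3 belong to the list of 14 bHLH partners and factors that Id proteins restrain, which had 7 log2 changes above 0 and 7 below, with a median of -0.006. Its E proteins, the partners that Id proteins bind directly, gave a log2 change of 0.13 for Tcf3, 0.15 for Tcf4 and -0.32 for Tcf12 with equal weights, and 0.041, -0.053 and -0.11 without mutant 1, so that Tcf4 turned sign and the others shrank. None passed the threshold in either fit.

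Among the 9 tested BMP ligands 5 log2 changes were above 0 and 4 below (median 0.20). Without mutant 1 it was 7 and 2 (median 0.11). Of the 9, 1 had every mutant above every control and 2 every mutant below, beside 8.98% and 11.9% of all tested genes. The 2 lower were Bmp8a and Bmp3, the latter 8.71, 8.53 and 8.8 FPKM in controls and 2.86, 7.25 and 7.53 FPKM in mutants. Bmp7 was 17.2, 17.5 and 17.1 FPKM in controls and 53.5, 21.1 and 24.2 FPKM in mutants, every mutant above every control. Bmp8a was 2.07, 1.52 and 2.43 FPKM in controls, was listed at 0 in mutant 1, and was 0.846 and 0.551 FPKM in mutants 2 and 3, every mutant below every control. Gdf5, the ligand of joints and early cartilage, was 7.07, 5.98 and 6.17 FPKM in controls and 3.93, 9.37 and 11.8 FPKM in mutants. None of these ligands passed with array weights (limma adjusted p = 0.0731 for Bmp7, 0.0644 for Bmp8a and 0.0544 for Gdf5).

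Many of the 11 tested genes listed as antagonists outside the cell bind BMPs and keep them from their receptors. The 11 had 5 changes above 0 and 6 below (median -0.010), and 8 above and 3 below without mutant 1 (median 0.20). With all 6 libraries 4 of the 11 had every mutant above every control and 1 every mutant below, beside 8.98% and 11.9% of all tested genes. Without mutant 1 it was 5 and 2, beside 16.2% and 20.1%. Grem1 was 3.92, 3.78 and 3.97 FPKM in controls and 10.6, 5.45 and 6.89 FPKM in mutants, and Bmper was 11.1, 11.9 and 12.5 FPKM in controls and 13.9, 14.6 and 16 FPKM in mutants. Nbl1, also called Dan, was 80.2, 80.6 and 86.5 FPKM in controls and 99.4, 93.5 and 104 FPKM in mutants. All 3 had every mutant above every control and missed the threshold with array weights (limma adjusted p = 0.0574, 0.0845 and 0.0918).

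The 11 receptors and co-receptors had 6 changes above 0 and 5 below (median 0.042), and 8 and 3 without mutant 1 (median 0.10). Every mutant lay above every control in 1 of the 11 and below in 1, beside 8.98% and 11.9% of all tested genes. Acvr1, a type I receptor, was 16.7, 16 and 18.1 FPKM in controls beside 63.2, 21 and 20.3 FPKM in mutants, every mutant above every control (limma adjusted p = 0.196 with weights). Bmpr1b, another type I receptor, was 4.99, 5.07 and 5.54 FPKM in controls, beside 4.87, 5.19 and 7.74 FPKM in mutants (limma adjusted p = 0.323 with weights). Hfe2, the co-receptor hemojuvelin, was 20.5, 23.2 and 30.2 FPKM in controls and 13.7, 20.4 and 16.3 FPKM in mutants, every mutant below every control (limma adjusted p = 0.201 with weights). Hfe2 is a gene of skeletal muscle, and 4 muscle markers summed to 1220 to 1720 FPKM in controls and 853 to 1140 FPKM in mutants. Of these 4, 2 were lower without overlap, beside 11.9% of all tested genes. Myod1 and Myog, bHLH factors of muscle, averaged 21.8 and 101 FPKM in controls and 21.9 and 103 FPKM in mutants. The part of muscle in the value of Hfe2 was not tested. The 9 Smads and regulators inside the cell had a median of 0.20 with all libraries and 0.025 without mutant 1. Smad5 was 27.8, 23.6 and 24 FPKM in controls and 59.3, 27.6 and 27.5 FPKM in mutants, with mutants 2 and 3 inside the control range. Smurf1, a ubiquitin ligase that marks BMP Smads for destruction, was 12.9, 13.3 and 12.5 FPKM in controls, beside 3.3, 15 and 14.3 FPKM in mutants, and Skil, a Smad co-repressor, 10.7, 12.2 and 12.4 FPKM beside 21.6, 12.1 and 15.1 FPKM. Their limma adjusted p with weights was 0.49, 0.558 and 0.327.

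The 16 other transcription factors known as BMP targets had 6 changes above 0 and 10 below, with a median of -0.41, or -0.053 without mutant 1, in which 6 of the 16 were listed at 0. Sp7, the osteoblast factor, was 46.5, 34.4 and 42.3 FPKM in controls beside 27.7, 33.2 and 23.3 FPKM in mutants (limma adjusted p = 0.114 with weights). Dlx3, a homeobox factor of bone, tooth and skin, was 12.3, 7.49 and 9.55 FPKM in controls, was listed at 0 in mutant 1, and was 7.04 and 3.8 FPKM in mutants 2 and 3 (limma adjusted p = 0.139 with weights). Gata2 was 7.28, 8.77 and 6.05 FPKM in controls, beside 2.84, 5.85 and 5.03 FPKM in mutants (limma adjusted p = 0.207 with weights). In all 3 every mutant lay below every control. Of the 16, 4 had every mutant below every control and 1, Gata6, every mutant above, beside 11.9% and 8.98% of all tested genes. Runx2 and Dlx5 overlapped between the groups, with means of 24.8 and 19.2 FPKM in controls. Over mutants 2 and 3 their means were 23.3 and 21.6 FPKM. Bone markers (6 genes, Sp7 among them) summed to 1750 to 2580 FPKM in controls and 968 to 1420 FPKM in mutants. Of the 6, 5 were lower without overlap, beside 11.9% of all tested genes. Bglap was at 0 in mutant 1 and in at least 1 other library. The part of bone cells in the values of Sp7 and Dlx3 was not tested. The 11 genes of the TGF-beta arm, which Smad7 also restrains, had 8 changes above 0 and 3 below (median 0.10). Without mutant 1 it was 4 and 7 (median -0.005). Every mutant lay above every control in 1 of the 11 and below in 0, beside 8.98% and 11.9% of all tested genes. Tgfb3 was 52.4, 50.3 and 53.6 FPKM in controls, beside 57.6, 56.5 and 56.5 FPKM in mutants, every mutant above every control (limma adjusted p = 0.36 with weights). Tgfb2 ran from 18.3 to 22.3 FPKM in controls and 21.6 to 25.4 FPKM in mutants, and Smad3, which carries the TGF-beta signal, from 40.1 to 49.5 and 49.1 to 80.9 FPKM (limma adjusted p = 0.392 and 0.461 with weights).

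**Figure D4:**
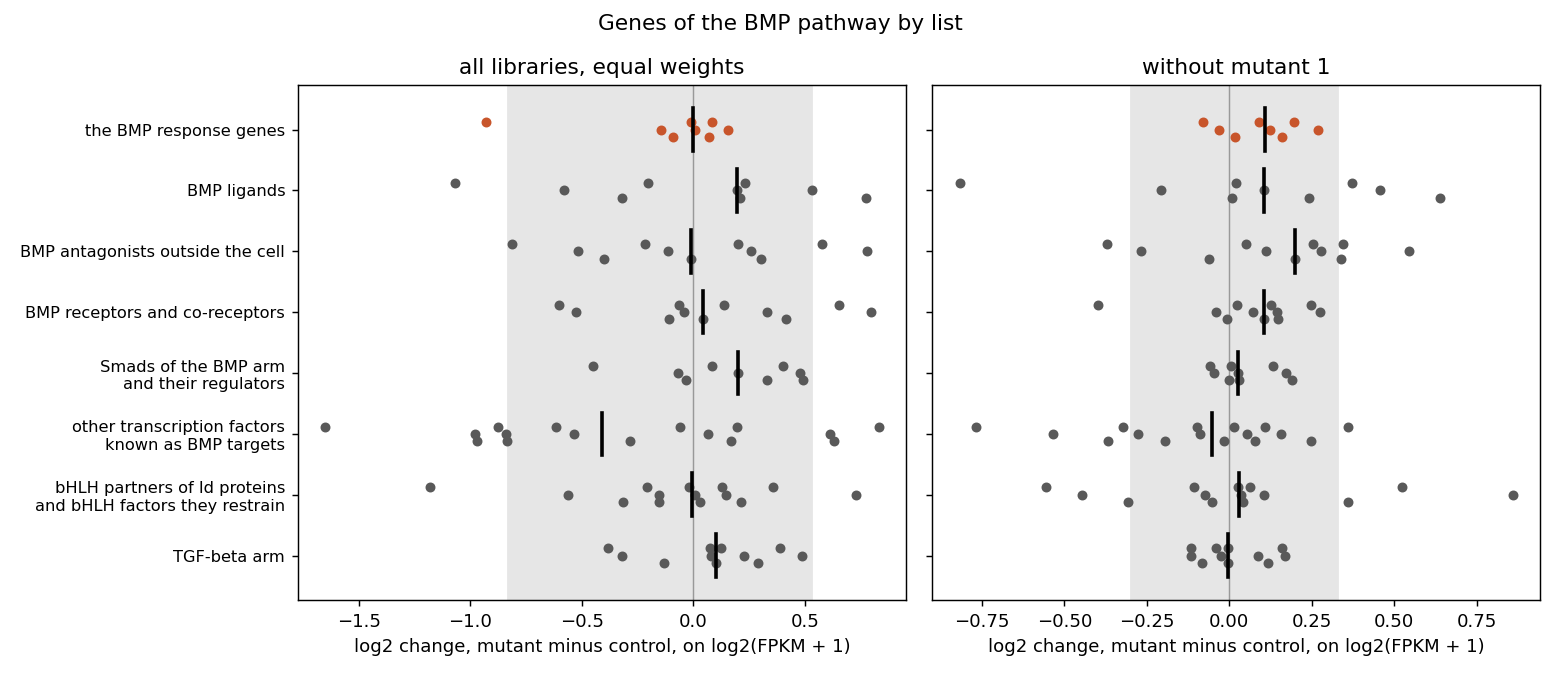
Log2 change, mutant minus control, on log2(FPKM + 1), of the 8 BMP response genes (orange) and of the tested genes of 7 pathway lists (grey), with each list's median as a black bar and the range from the 10th to the 90th percentile of all tested genes shaded. Of the 8 genes, Smad7 alone lies outside the shaded range with all libraries, and none does without mutant 1.

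Id1, Id3 and Smad6 are abundant in blood vessel lining, so 8 endothelial markers were set beside them. They summed to 178, 201 and 185 FPKM in controls and 218, 211 and 198 FPKM in mutants 1, 2 and 3. None was at 0 in any library. Of these, 2 of 8 had every mutant above every control and 0 every mutant below, beside 8.98% and 11.9% of all tested genes. Epithelial markers (7 genes) summed to 392 to 420 FPKM in controls and 217 to 299 FPKM in mutants. Fat cell markers (5 genes) summed to 394 to 489 and 137 to 211 FPKM, with Adipoq, Plin1 and Cidec at 0 in mutant 1. Every mutant lay below every control in 4 of the 7 epithelial and 5 of the 5 fat cell genes. Pericyte and smooth muscle markers (6 genes) summed to 216 to 256 and 214 to 262 FPKM, with Myh11 and Kcnj8 at 0 in mutant 1. Macrophage markers (5 genes) summed to 154 to 166 and 163 to 189 FPKM, neuron and glia markers (5 of 6 found) to 106 to 194 and 95.5 to 158 FPKM, and red blood cell markers (5 genes) to 683 to 843 and 499 to 667 FPKM. Without overlap, 2 pericyte and smooth muscle genes were higher in mutants and 1 lower, and 1 macrophage gene was higher and 2 lower. For neuron and glia it was 0 and 0, and for red blood cells 0 higher and 1 lower. The part of these cell types, or of cartilage, in the levels of the 8 genes was not tested.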

How the data were processed

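The authors deposited 1 table of FPKM values, made with Cufflinks on the build mm9 per the submitters' processing notes (no version). The header does not name the unit, which was read from the tool and the values. The sources used here name no aligner, annotation or filter. The p-value column is the authors' own, deposited without its test. The code 999999999 was read as missing, which left out 15 entries. Promoters are of GRCm38.p6, another build, and were matched by symbol for 5 of 8 genes.

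The 15710 entries averaging 1 FPKM or more across all 6 libraries were fitted in limma 3.58.1 (R 4.3.3) on log2(FPKM + 1) with genotype as covariate, eBayes with trend and robust options, two-sided, Benjamini-Hochberg over all of them, threshold 0.05. Such folds understate the change of low genes. statmod 1.5.0 served the random effect of the title word. The equal-weight fit was checked on simulated data in which no library stood apart as mutant 1 does, so the check does not cover that case. Named are the 8 genes, the 3 per list with the smallest weighted p, any past its threshold, and the nearest 3 to Id1, Smad6 and Bambi. Tcf3, Tcf4, Tcf12, Bmp3, Gata6, Runx2 and Dlx5 were added after their values were seen. Members and lists were chosen with earlier results of these data known. Replicates are separate embryos; their numbers follow accession order and pair nothing. At most 0.00637% of tested genes had equal values above 0 in any 2 libraries. Depth relative to control 1 was read from values below 0.1 FPKM there. The alternatives were other pseudocounts, filters, weights, scaling, eBayes options, a title-word effect, each library left out, and, chosen after seeing the data, values listed at 0 as missing.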

Additional observations from a re-analysis of the deposited data

How the results depend on the processing

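No BMP response gene passed under any of 15 alternatives (lowest limma adjusted p 0.284), and Smad9, under 5 FPKM, has no value under that filter. Of 119 values for the 8 genes 102 kept the sign and 17 turned it. With array weights Bambi was -0.095, Id3 0.023, Id4 0.085, Smad7 0.22, Smurf1 0.14 and Tcf15 0.50 in log2 change, the median of the 8 genes was 0.098, and 113 genes were called higher and 207 lower in place of 0. Bambi was -0.042 with median ratio scaling and -0.004 with the title word as a random effect. With values listed at 0 as missing, Smad7 was 0.27 and Tcf15 0.52. When each library in turn was left out, Bambi ran from -0.080 to 0.089, Id1 from -0.006 to 0.20, Id3 from -0.077 to 0.041, Id4 from -0.28 to 0.091, Smad6 from -0.043 to 0.16, Smad7 from -1.56 to 0.27, Bmpr1b from -0.040 to 0.25, Gdf5 from -0.047 to 0.64, Smurf1 from -0.78 to 0.17, Tcf15 from -0.50 to 0.52 and the median of the 8 genes from -0.041 to 0.11. Genes called ran from 0 to 2 higher and 0 to 5 lower, all of them without mutant 1. The cause was not tested; for Smad7 and Tcf15 taking only the listed 0 of mutant 1 as missing turned the sign. Of the other 312 values 304 kept sign and side, and Scx passed with array weights only. Counts of fragments are unknown, so no value has a counting interval.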
